A study of Mus musculus with 3 samples.

Results

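The 10 genes described here carry the insulin signal in the fat cell from the receptor to glucose uptake: Insr, Irs1, Irs2, Grb10, Pik3r1, Akt1, Akt2, Foxo1, Tbc1d4 and Slc2a4. They were chosen by name, out of 21631 protein-coding genes, for their known roles. The measurement was H3K4me1, the monomethyl mark on lysine 4 of histone H3 that lies over enhancers and the flanks of active promoters. It was mapped by chromatin immunoprecipitation and sequencing (ChIP-seq) with antibody ab8895. One library, AKO, came from adipocytes of male mice in which LONP1, the Lon protease of the mitochondrial matrix, was knocked out in adipocytes only. The other, WT, came from adipocytes of male wild-type mice that served as controls, and both were of strain C57BL/6J. The driver of the knockout, the age of the mice, the fat depot and the number of animals per library are not stated in the labels. An input library without antibody was the background for both peak calls. The labels disagree on the input, which is titled for the AKO sample but has a wild-type genotype entry, and fold enrichment and local background rest on it. Each genotype had 1 library, so no spread between replicates exists, no test between genotypes was possible, and each difference below is one between these libraries.

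Insulin binds a receptor tyrosine kinase, which phosphorylates the IRS adaptor proteins. These recruit phosphoinositide 3-kinase, whose lipid product brings the kinase AKT to the membrane. In adipocytes AKT then releases the glucose transporter GLUT4 to the cell surface, keeps FOXO1 out of the nucleus, and favours lipid storage over lipolysis.

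Peaks were taken from the authors' lists where they touched the gene body or the 10 kb on each side of it (mm10). These windows held 89 of the 62361 AKO peaks and 98 of the 72040 WT peaks. The libraries had 14733950 AKO and 15015805 WT tags after removal of duplicates. A pileup value is the number of fragments stacked at a peak's summit, scaled by the authors to the input. Dividing it by the scale factor of the library, 0.647 for AKO and 0.635 for WT, gave whole fragments, which are used below. Counts of regions higher or lower in AKO rest on the scaled pileup, so equal fragment numbers count as higher in AKO. The smallest summit in either list held 10 fragments, so a site with fewer could not be detected at this depth. A peak present in a single list is therefore a difference in calling and does not show that the mark was absent in the other library.

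All 8 adipocyte markers examined had peaks in both libraries, with 23.8 kb covered in AKO and 33.1 kb in WT. Lonp1 had 6.21 kb in AKO and 8.75 kb in WT. Which stretch of the gene was removed is not stated, so its peaks do not check the knockout. Among markers of other cells, 3 of 4 macrophage genes had peaks in both libraries (10.6 kb summed in AKO, 17.3 kb in WT) and Adgre1 had none. The 3 endothelial genes had 4.91 kb in AKO and 11.2 kb in WT. The lymphocyte genes Ptprc and Cd3e had no peak in either library. The 3 muscle genes had 3.60 kb in AKO and 7.18 kb in WT, with no peak at Myod1. The part of these other cells in the results below was not tested.

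The insulin signalling genes had slightly less H3K4me1 in AKO than in WT, with a summed covered length of 86.8 kb in AKO and 98.3 kb in WT. The ratio was 0.883, against 0.724 over all protein-coding genes. Covered length was less in AKO for 9 members and more for 1, Irs1. Over all protein-coding genes it was less for 11696 (54.1%) and more for 3226 (14.9%). Another 6707 genes had no peak in either library and could go neither way, while every member had a peak. The 54.1% is therefore not like for like with the 9 members. Among genes that differed, less was the more frequent direction in the genome too, 11696 against 3226. With both lists limited to an equal covered length, the covered length was less in AKO for 4 members and more for 5. Insr, Grb10, Pik3r1 and Akt2 turned direction, and Tbc1d4 had no peak left. In that setting the summed ratio was 0.975 for the members and 0.935 over all protein-coding genes, whose shares in each direction were not counted. A rule of size stands in for a test. It asks that one library have more than 2 times the length of the other and at least 2 kb more. With the full lists no member met it in either direction, while it called 5.35% of protein-coding genes lower and 0.227% higher in AKO. A gene with under 2 kb in WT cannot be called lower. Among the 8217 genes with at least 2 kb in WT, 14.1% were called lower, and 0 of the 9 such members were. Over those 8217 genes the median AKO to WT ratio was 0.680, with quartiles of 0.531 and 0.828. Over the 9 members the median ratio was 0.923. Genes picked for their length in WT have a lower ratio partly by that choice. The 9 members had 2.64 to 21.4 kb in WT, and they were not compared with genes of like WT length.

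The ratio was between 0.892 and 1.26 at Insr, Irs1, Irs2, Grb10, Pik3r1, Akt1 and Akt2. It was 0.724 at Tbc1d4, 0.517 at Foxo1 and 0.505 at Slc2a4. Foxo1 and Slc2a4 came closest to the rule of size, with WT to AKO ratios of 1.93 and 1.98.

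**Figure D1:**
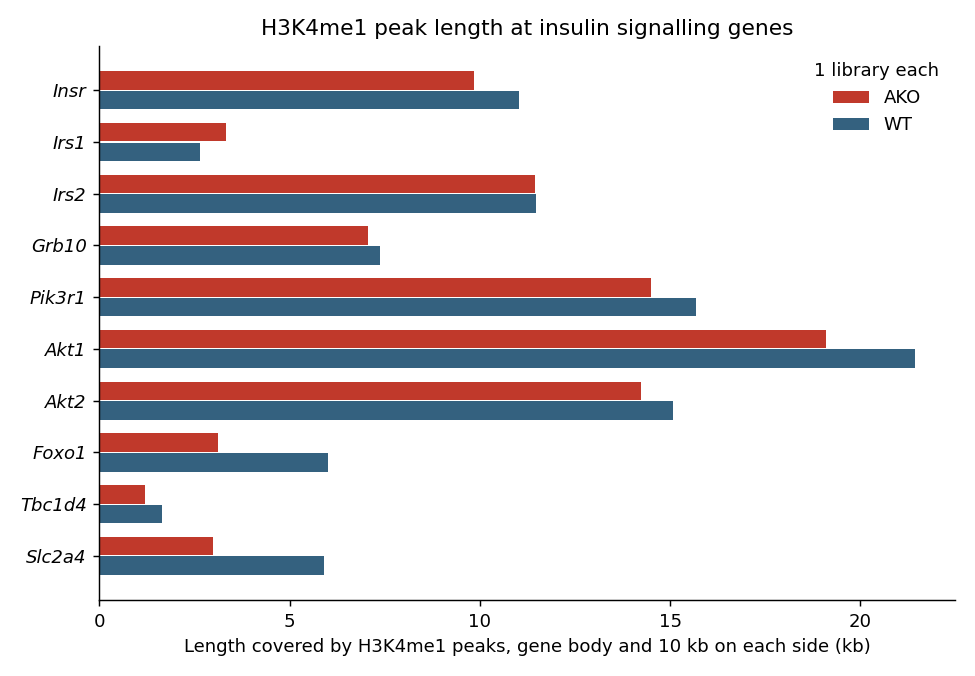
Length covered by H3K4me1 peaks in the gene body and 10 kb on each side, in kb, for each gene. The AKO bar is above the WT bar and each bar is 1 library, so there is no error bar. Akt1 is the most covered (19.1 kb in AKO, 21.4 kb in WT), Irs1 alone is longer in AKO, and Foxo1 and Slc2a4 have the lowest AKO to WT ratios.

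Insr encodes the insulin receptor. Its gene (chr8:3150922-3279649) had 16 AKO peaks covering 9.84 kb and 18 WT peaks covering 11.0 kb. All of them lay in the gene body, and the tallest summit lay 86.1 kb from the lower-coordinate end in both libraries. That peak spanned chr8:3236836-3238422 in AKO, with a pileup of 16.2 from 25 fragments, and chr8:3236861-3238600 in WT, with a pileup of 18.4 from 29 fragments. A second AKO summit was as tall, with 25 fragments at chr8:3259904-3260632, against 18 fragments in its WT partner. Heights went both ways at this gene, lower in AKO in 5 and higher in 6 of the 11 regions marked in both libraries. Another 5 regions were called only in AKO and 7 only in WT. The AKO-only peak farthest from any WT peak (21.3 kb) lay at chr8:3187749-3188431 with 14 fragments.

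Irs1 and Irs2 encode the main adaptor proteins that the receptor phosphorylates. Irs1 (chr1:82233105-82291439) had 3.32 kb in 4 AKO peaks and 2.64 kb in 2 WT peaks. Its largest peak lay in the gene body near the transcript start, and was 2188 bp wide in AKO (chr1:82287474-82289661) and 2101 bp wide in WT (chr1:82287755-82289855). The edge facing the start was 1.78 kb from it in AKO and 1.58 kb in WT. This peak was lower in AKO by height, with 24 fragments in AKO and 33 in WT, yet higher by the authors' fold enrichment, 5.28 in AKO and 3.14 in WT. Fold enrichment divides the summit by the local background, and the background implied by the deposited values was 2.13 under the AKO summit and 5.9998 under the WT summit. The 2 summits lay at different positions within the same peak. The other shared peak went the opposite way in height, with 25 fragments in AKO (chr1:82247604-82248090) and 18 in WT (chr1:82247552-82248089). The excess of length in AKO came from peaks with no WT partner, of 18 fragments at chr1:82258543-82258916 and 16 at chr1:82279769-82280038.

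Irs2 (chr8:10984681-11008929) was densely marked. With the full lists it was nearly equal in length, with 11.45 kb in AKO and 11.47 kb in WT from 9 peaks each. The mark covered 25.9% of its window in each library, and only 2.31% of protein-coding genes in AKO and 5.82% in WT had a higher share. Its tall peaks were lower in AKO. The peak nearest the transcript start spanned 2054 bp in AKO (chr8:11004895-11006948, 34 fragments) and 3587 bp in WT (chr8:11003556-11007142, 45 fragments). The second spanned 3301 bp in AKO (chr8:10993447-10996747, 33 fragments) and 3379 bp in WT (chr8:10993444-10996822, 43 fragments). At this second peak the fold enrichment was 2.48 in AKO and 9.75 in WT, a far wider gap than that in height, and the implied background was 7.9994 under the AKO summit and 1.904 under the WT summit. Another, in the flank beyond the far end of the gene, had 24 fragments in AKO (chr8:10977431-10978927) and 32 in WT (chr8:10977575-10979058). Of the 6 regions marked in both libraries, 5 were lower and 1 was higher in AKO. The 3 AKO-only peaks each lay between 0.353 and 0.589 kb from a WT peak.

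Grb10 encodes an adaptor that binds the activated receptor and restrains its signal, and the gene is imprinted. At Grb10 (chr11:11930499-12037428) the libraries were again close, with 7.06 kb in 11 AKO peaks and 7.37 kb in 12 WT peaks. Most of the mark lay over the stretch of the gene that also holds the long noncoding RNA gene LOC102631979 (chr11:11958406-11967525), 4.38 kb of it in AKO and 3.72 kb in WT. One WT peak there, chr11:11963413-11965172 with 35 fragments, matched a pair of AKO peaks of 27 and 15 fragments. The neighbouring peak had 26 fragments in each library. An AKO peak of 22 fragments at chr11:11938469-11938824 had no WT peak within 5.77 kb. Neither RefSeq transcript start lay in a peak, the nearest edges being 3.52 kb away in AKO and 3.51 kb in WT.

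**Figure D2:**
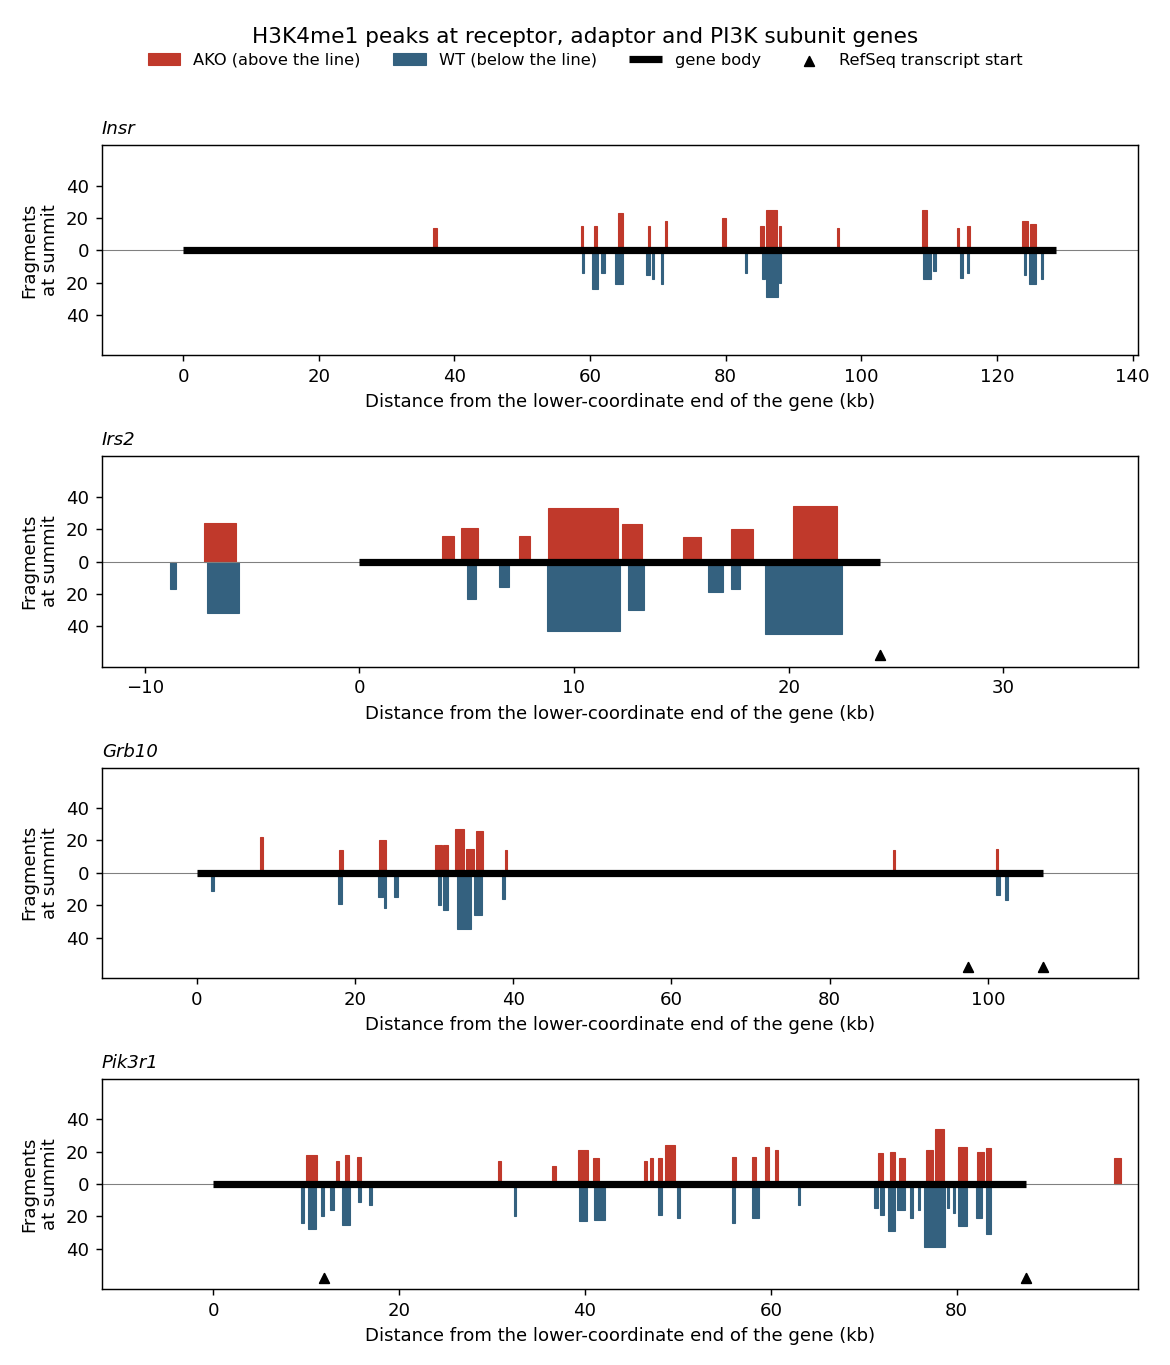
Peaks at Insr, Irs2, Grb10 and Pik3r1 by distance from the lower-coordinate end of each gene, in kb. Bars span the called peaks, and their length above the line (AKO) or below it (WT) is the number of fragments at the summit; black bars are gene bodies and triangles RefSeq transcript starts, shown where the RefSeq table used has them. At Irs2, 6 of 12 regions are marked in both libraries, with taller WT bars at its widest peaks.

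Pik3r1 encodes the regulatory subunits of phosphoinositide 3-kinase, a long form and short forms made from internal starts. It held the most peaks of the 10 genes (chr13:101680761-101768217), 25 in AKO covering 14.5 kb and 27 in WT covering 15.7 kb. The ratio of length was 0.923. Among 35 merged regions, 15 were marked in both libraries, 9 in AKO only and 11 in WT only. Of the 15 shared regions, 12 were lower and 3 higher in AKO. The tallest had its edge 8.82 kb in AKO and 8.76 kb in WT inside the start of the long form. It was a single WT peak of 2160 bp (chr13:101757296-101759455, pileup 24.8 from 39 fragments) and a pair of AKO peaks, the taller of which spanned chr13:101758440-101759396 with a pileup of 22.0 from 34 fragments. The other AKO peak of the pair had 21 fragments (chr13:101757430-101758181). The mark was thus split in the AKO list, and the height in the gap itself is not known.

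The one internal start of Pik3r1 in the RefSeq promoter table used differed in calling. The window from 250 bases before to 50 bases after that start (chr13:101692581-101692880, minus strand, RefSeq, GRCm38.p6) overlapped a WT peak of 20 fragments at chr13:101692342-101692704. No AKO peak was called there. The nearest AKO peak edge was 0.743 kb from the start, at chr13:101690785-101691887, and that peak had 18 fragments in AKO against 28 in its WT partner. The sequence of the window is shown because it is the one among the 14 starts examined that lay in a peak of a single library. Capitals mark the 124 bases inside the WT peak, which surround the start.
Pik3r1 internal start: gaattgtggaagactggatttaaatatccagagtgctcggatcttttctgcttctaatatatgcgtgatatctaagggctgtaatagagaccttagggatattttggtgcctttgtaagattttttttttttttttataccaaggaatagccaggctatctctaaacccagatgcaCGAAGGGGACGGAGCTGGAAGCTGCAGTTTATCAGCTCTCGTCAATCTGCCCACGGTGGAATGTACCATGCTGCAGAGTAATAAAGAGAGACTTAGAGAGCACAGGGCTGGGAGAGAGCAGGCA

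Akt1 and Akt2 encode the AKT kinases, AKT2 being the form most tied to glucose uptake in fat and muscle. Both genes carried wide domains of H3K4me1 that were called in both libraries at nearly the same borders. Akt1 (chr12:112653821-112674884) had 19.1 kb in AKO and 21.4 kb in WT from 8 peaks each. The mark covered 46.5% of its window in AKO and 52.2% in WT, and only 0.185% of protein-coding genes in AKO and 0.361% in WT had a higher share. Its main domain ran over 8025 bp in AKO (chr12:112664857-112672881) and 8294 bp in WT (chr12:112664709-112673002). By width it ranked 20th among the AKO peaks and 76th among the WT peaks on chromosomes 1 to 19 and X. Its summit was lower in AKO, with a pileup of 25.9 from 40 fragments in AKO and 37.5 from 59 fragments in WT. The ratio of pileup was 0.691, and its exact (Clopper-Pearson) 95% interval, which covers counting error only, ran from 0.451 to 1.05. The summits lay at different positions in the domain, chr12:112665515 in AKO and chr12:112668499 in WT. The next domain had 36 fragments in each library (chr12:112660557-112664297 in AKO, chr12:112660271-112664479 in WT). So the lower AKO fragment number at the tallest summit was not seen at its neighbour, and neither ratio differed from 1 beyond counting error.

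Part of the mark in the Akt1 window lay over other genes. Siva1 held 2.78 kb in AKO and 3.97 kb in WT, and Zbtb42 held 2.36 kb in AKO and 2.28 kb in WT. With the body of Akt1 alone, covered length was 12.04 kb in AKO and 12.8 kb in WT.

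Akt2 (chr7:27591552-27640826) had 14.2 kb in 5 AKO peaks and 15.1 kb in 6 WT peaks, and nothing in its flanks in either library. The part of the gene nearest its outer start held all AKO peaks and all WT peaks but one of 13 fragments (chr7:27612914-27613402). The widest domain spanned 5107 bp in AKO (chr7:27594034-27599140, pileup 22.7, 35 fragments) and 5264 bp in WT (chr7:27594030-27599293, pileup 31.1, 49 fragments). The tallest spanned 4543 bp in AKO (chr7:27603882-27608424, pileup 24.6, 38 fragments) and 5048 bp in WT (chr7:27603873-27608920, pileup 34.3, 54 fragments). The borders of these domains were close in both libraries, while heights were lower in AKO in all 4 shared regions, at ratios from 0.713 to 0.949.

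RefSeq lists 4 transcript starts for Akt2, and the 3 internal ones lay wholly inside these domains in both libraries. The first, at the outer end of the gene, lay 1.57 kb from the nearest peak in AKO and 1.60 kb in WT. The window around the first internal start (chr7:27596580-27596879, plus strand, RefSeq, GRCm38.p6) is shown because it holds the AKO summit and the WT summit of the widest domain. Capitals mark the 208 bases from the AKO summit to the WT summit.
Akt2 first internal start: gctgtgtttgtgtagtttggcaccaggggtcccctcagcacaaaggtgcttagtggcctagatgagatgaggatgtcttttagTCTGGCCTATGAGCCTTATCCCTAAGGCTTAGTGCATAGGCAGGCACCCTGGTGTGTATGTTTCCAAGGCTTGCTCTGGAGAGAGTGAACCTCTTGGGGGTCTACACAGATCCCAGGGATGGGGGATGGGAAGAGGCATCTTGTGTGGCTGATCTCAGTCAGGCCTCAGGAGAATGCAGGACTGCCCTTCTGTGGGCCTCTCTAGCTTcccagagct

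Foxo1 encodes the forkhead transcription factor that AKT phosphorylates and excludes from the nucleus. It had 3.11 kb in 5 AKO peaks and 6.01 kb in 10 WT peaks (chr3:52268337-52350109), a ratio of 0.517. All 4 regions marked in both libraries were lower in AKO. The lowest ratio of height was at chr3:52293047-52293709 in AKO with 15 fragments, against chr3:52292865-52293542 in WT with 26 fragments, a ratio of 0.588 with an exact 95% interval of 0.290 to 1.15. The tallest AKO peak, chr3:52342958-52344143 with 25 fragments, matched a WT peak of 26 fragments (chr3:52342936-52344226). That ratio was 0.980 with an exact 95% interval of 0.543 to 1.77, which overlaps the interval at the lowest ratio. Whether the ratio varied along the gene was not tested.

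The 6 WT peaks of Foxo1 without an AKO partner had 13 to 20 fragments. The median was 17 over all WT peaks without a partner and 19 over all WT peaks, on chromosomes 1 to 19 and X. One lay just upstream of the transcript start, at chr3:52267553-52267922 with 15 fragments and its edge 0.415 kb from the start. The nearest AKO peak to that start was 24.7 kb away. A cluster at chr3:52297174-52297658, chr3:52298988-52299816 and chr3:52300340-52300773 held 13, 20 and 18 fragments in WT, and the AKO peak closest to any of them was 3.465 kb away. The single AKO-only peak had 12 fragments (chr3:52304899-52305168).

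Tbc1d4 encodes AS160, a Rab GTPase-activating protein that holds GLUT4 vesicles inside the cell until AKT phosphorylates it. It was the least covered gene for its size (chr14:101442360-101609281), with 1.19 kb in AKO and 1.65 kb in WT from 3 peaks each. The mark took 0.639% of its window in AKO and 0.883% in WT. Only one region was shared, with 16 fragments in each library (chr14:101568756-101569247 in AKO, chr14:101568789-101569230 in WT). The strongest peak was called in WT alone, at chr14:101607581-101608438, with 27 fragments and its edge 0.753 kb inside the transcript start. The nearest AKO peak lay 38.3 kb from it. This was the tallest of the 35 WT peaks without an AKO partner in the 10 windows. All 3 AKO peaks lay in the stretch that also holds the pseudogene Gm34417.

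Slc2a4 encodes GLUT4, the glucose transporter that insulin brings to the surface. Its window (gene chr11:69942286-69948216) had 2.98 kb in AKO and 5.90 kb in WT, from 3 peaks each. Most of the difference lay at a peak below the lower-coordinate end of the gene, where Ybx2, a gene for a Y-box RNA-binding protein, lies (chr11:69935805-69941604). This peak spanned 4964 bp in WT (chr11:69935259-69940222, pileup 26.0, 41 fragments). In AKO it was called as a peak of 2177 bp with the same lower border (chr11:69935259-69937435, pileup 24.6, 38 fragments) and a weak one of 280 bp (chr11:69938106-69938385, 15 fragments). The ratio of the highest summits was 0.945, with an exact 95% interval of 0.591 to 1.51. That interval is too wide to tell whether height differed along with length here. At the other end of the gene the shared peak was taller in AKO, with 22 fragments in AKO (chr11:69948446-69948969) and 16 in WT (chr11:69948398-69948948). A WT peak of 14 fragments beside it (chr11:69947743-69948127) had no AKO partner. The gene body itself held 0.385 kb in WT and no AKO peak.

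**Figure D3:**
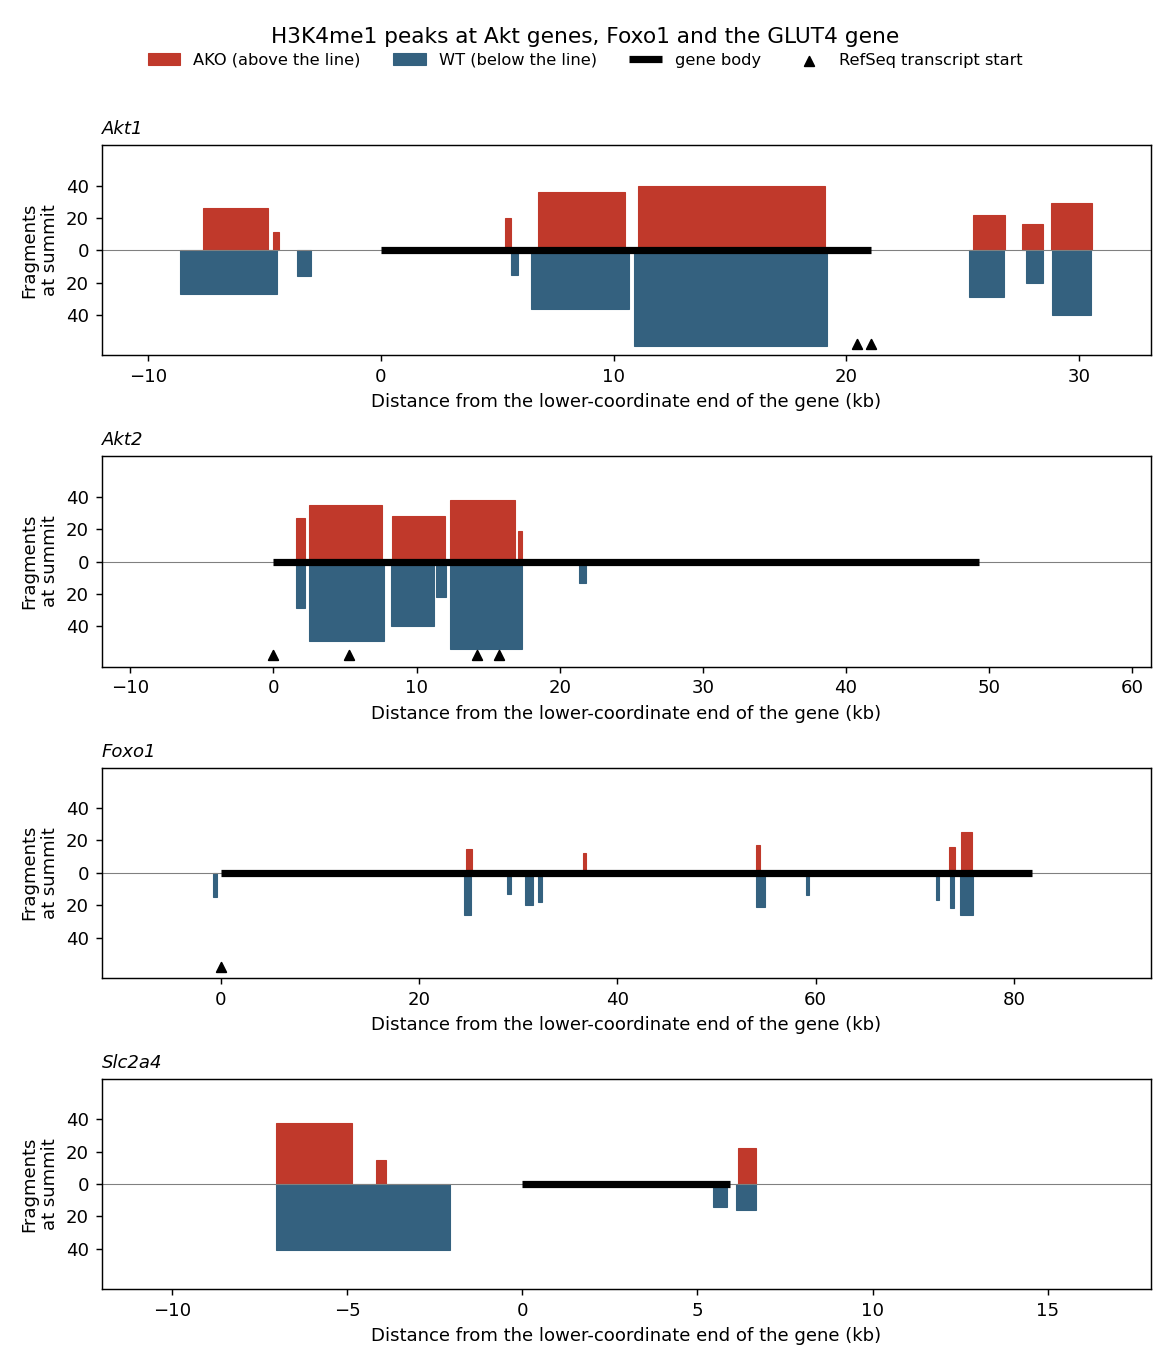
Peaks at Akt1, Akt2, Foxo1 and Slc2a4 by distance from the lower-coordinate end of each gene, in kb, with the number of fragments at the summit above the line for AKO and below it for WT. Black bars are gene bodies and triangles RefSeq transcript starts, shown where the RefSeq table used has them. The widest domains of Akt1 and Akt2 have close borders and lower AKO summits, the next Akt1 domain has 36 fragments in each library, Foxo1 has fewer AKO peaks, and the WT peak outside the lower end of Slc2a4 is shorter and split in AKO.

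Most peaks of the 10 genes had a partner, and the median peak without one was narrower and lower than the median peak with one. Of the AKO peaks, 65 of 89 overlapped a WT peak by at least 1 bp, a share of 73.0% (Wilson 95% interval 63.0 to 81.2), against 76.2% of all AKO peaks on chromosomes 1 to 19 and X. Of the WT peaks, 63 of 98 overlapped an AKO peak, 64.3% (54.4 to 73.1), against 60.4% of all WT peaks. Both intervals include the share over all peaks. AKO peaks with a partner had a median width of 752 bp and a median of 20 fragments, and the 24 without one 359.5 bp and 16 fragments. WT peaks with a partner had a median width of 726 bp and 22 fragments, and the 35 without one 363 bp and 16 fragments. Some peaks without a partner were taller, reaching 24 fragments over 1062 bp in AKO (Pik3r1, chr13:101729344-101730405) and the 27 fragments at Tbc1d4 in WT. Peaks without a partner were often close to a peak of the other library, within 1 kb for 10 of the 24 AKO peaks and 20 of the 35 WT peaks.

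**Figure D4:**
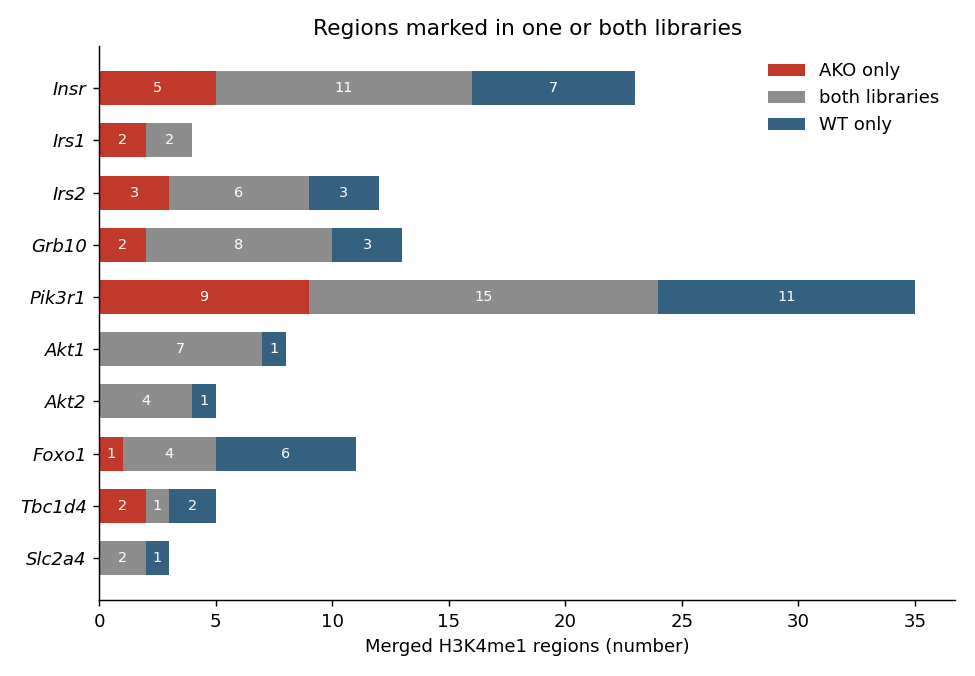
Number of merged H3K4me1 regions at each gene called in AKO only, in both libraries and in WT only. Akt1, Akt2 and Slc2a4 have no AKO-only region, Irs1 has no WT-only region, and Foxo1 has 6 WT-only regions against 1 AKO-only region.

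Where both libraries were marked, the AKO summit was usually the lower one. Over the 60 shared regions of the 10 genes, AKO pileup was lower in 43 and higher in 17, a share lower of 71.7% against 71.8% over the 41022 shared regions of the genome. The 17 include regions with equal fragment numbers, at Insr, Grb10, Pik3r1, Akt1 and Tbc1d4, because the AKO scale factor is the larger one. The median AKO to WT ratio was 0.862 at the 10 genes and 0.858 over the genome. In height the insulin signalling genes thus had about the genome-wide value. Ratios ran from 0.588 at Foxo1 to 1.57 at Pik3r1. The exact 95% interval of the ratio included 1 in all 60 regions, so at this depth no single region of these genes differed in height beyond counting error. Intervals were not computed for the other shared regions of the genome, so this count has no genome-wide share beside it. In the 8 shared regions with at least 40 WT fragments, at Irs2, Akt1, Akt2 and Slc2a4, the AKO summit was the lower one in all 8, with a median ratio of 0.733. The same held for 98.9% of such regions over the genome, with a median ratio of 0.687. Regions picked for a tall WT summit have a lower ratio partly by that choice.

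**Figure D5:**
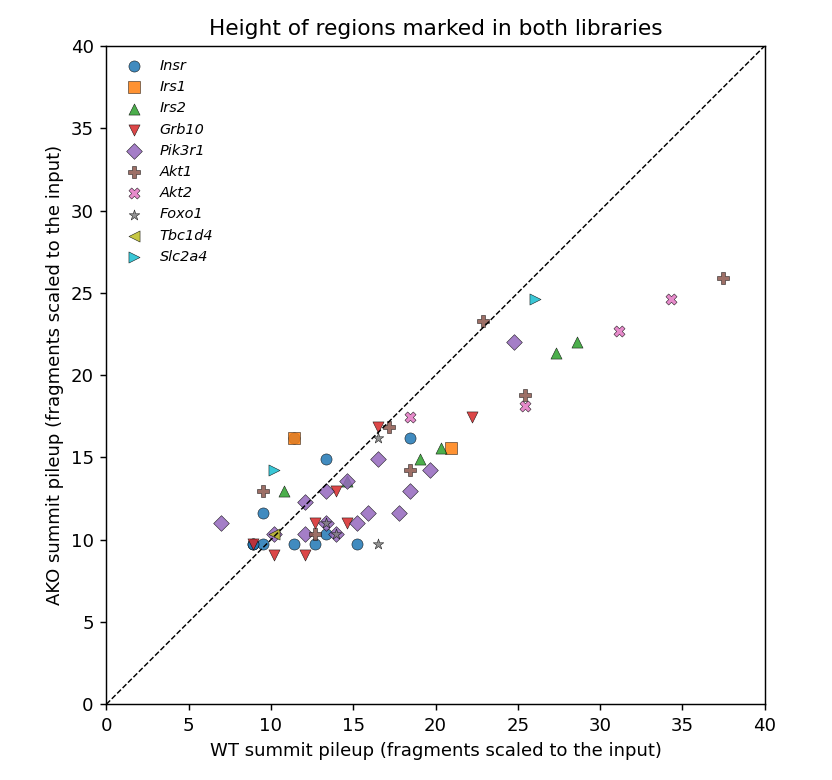
Summit pileup of the 60 regions marked in both libraries, AKO against WT, in fragments scaled by the authors to the input; each symbol is 1 region and the dashed line marks equal height. Of the 60 points, 43 lie below the line, among them the tallest WT summits at Akt1 and Akt2.

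The transcript starts of these genes mostly lay outside the peaks. The RefSeq promoter table (GRCm38.p6, 250 bases before to 50 after each start) matched 8 of the 10 genes with 14 starts, and not Insr or Slc2a4. Peaks overlapped 3 of the 14 windows in AKO (21.4%) and 4 in WT (28.6%), against 8.86% in AKO and 16.1% in WT of the 21045 windows of protein-coding genes. The 4 windows in a peak were those of the internal starts of Akt2 and Pik3r1, and they held few CpG dinucleotides, a median of 3.5 against 29.5 in the 10 other windows. Over all protein-coding genes the medians were 15 in a WT peak and 13 outside. The start windows of Irs1, Irs2 and Foxo1 had 28, 41 and 31 CpG and lay in no peak. The FOXO-binding core TGTTTAC, searched on both strands, was found in 1 of the 14 windows, at the outer start of Akt1, and in 3.03% of all windows. A match is a string of letters and no evidence of binding.

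The other genes of the pathway, 51 listed by symbol, had less covered length in AKO in sum. Covered length was less in AKO for 37, more for 11, and 3 (Foxo4, Rps6kb1 and Pde3b) had no peak in either library. The sum was 376 kb in AKO and 478 kb in WT, a ratio of 0.788. The sum over all protein-coding genes gave 0.724. For the 51 the ratio was 1.0991 when both lists were limited to equal covered length, against 0.935 over all protein-coding genes. The median difference was −1.78 kb over the 51, −1.02 kb over the 10 members and −0.176 kb over all protein-coding genes, of which many have no peak. The rule of size called 5 of the 51 lower in AKO and none higher. That is 12.8% of the 39 with at least 2 kb in WT, near the 14.1% over all such genes.

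Those 5 were adaptors of the receptor and a phosphatase. Irs3, an IRS adaptor active in rodent fat, had 2.05 kb in AKO and 9.24 kb in WT (gene chr5:137643032-137645714). The gene is so short that most of the WT length lay in its 10 kb flanks, where neighbouring genes were not examined. Inppl1, which encodes the lipid phosphatase SHIP2, had 2.76 kb in AKO and 6.30 kb in WT. The adaptor genes Sh2b2 and Sh2b1 had 2.05 kb and 1.78 kb in AKO, against 5.34 kb and 4.11 kb in WT. Grb7, related to Grb10, had no AKO peak and 2.16 kb in WT. Irs3 thus met the rule of size while Irs1 and Irs2 did not, and whether the difference itself exceeds that between other genes was not tested.

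The 3 largest deficits of length in AKO were at Rptor, Igf1r and Irs3. Rptor, the scaffold of the kinase complex mTORC1, had 37.0 kb in AKO and 45.1 kb in WT, and Igf1r, the receptor for insulin-like growth factor 1, had 35.9 kb in AKO and 43.4 kb in WT. The largest excesses in AKO were at Phlpp1, a phosphatase that acts on AKT (10.2 kb in AKO, 7.48 kb in WT), and at Rheb, a GTPase that activates mTORC1 (6.27 kb in AKO, 4.06 kb in WT). Pik3ca, the catalytic subunit partner of Pik3r1, followed with 8.53 kb in AKO and 6.97 kb in WT.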

How the data were processed

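H3K4me1 ChIP-seq of adipocytes was analysed from 1 AKO and 1 WT peak list. Per the submitters' processing notes, Bowtie2 2.2.5, MACS2 2.2.1 and mm10 were used, while the file headers name MACS 2.1.1.20160309. Per the file headers, narrow peaks were called at a q-value cutoff of 0.05 against the same input (9537585 tags), from 150 bp tags, with 1 tag kept per position and without pooling. Narrow mode splits broad domains, which changes peak numbers and widths. For each peak the authors deposited a pileup (signal at its summit), a fold enrichment over local background (a ratio), and −log10 p and q. Pileup over the scale factor was whole within 0.02 for every peak. The implied background is (pileup + 1) divided by fold enrichment, minus 1.

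Covered length, partners (at least 1 bp of overlap) and merged regions were computed in Python 3.11.15 (scipy 1.17.1, pandas 2.3.3, numpy 2.4.6), with gene positions from RefSeq GRCm38.p6. Covered lengths were checked against a base-by-base count on 200 simulated windows. Long genes have long windows. Intervals (Wilson for shares, Clopper-Pearson for ratios of fragments) cover counting error only. A ratio compares the highest summit of each library in a region, wherever it lies, and its interval does not allow for that choice. Alternatives were stricter peaks, equal lists, joined peaks, other windows and another overlap. Genes named are the 10 members, pathway genes past the rule of size or with the 3 largest differences in each direction, marker genes and neighbours under a peak. Members, lists and rules were chosen with earlier results of these data known. One marker gene examined is not reported here.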

Additional observations from a re-analysis of the deposited data

How the results depend on the processing

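The summed AKO to WT ratio of covered length at the 10 genes stayed below 1 in each setting tried. It was 0.709 for peaks at or above 5 in −log10 q, 0.852 for those at or above 4 in fold enrichment, 0.920 with equal numbers of peaks, 0.975 with equal covered length (each list limited by rank to 50% of the length of the shorter), 0.858 with peaks within 1 kb joined, 0.911 with gene bodies alone and 0.866 with 20 kb flanks. In the same order the ratio of the 51 other pathway genes was 0.637, 0.792, 0.857, 1.0991, 0.772, 0.834 and 0.772, and so crossed 1 with equal covered length. The ratio over all protein-coding genes was 0.554, 0.694, 0.774, 0.935, 0.740, 0.756 and 0.713 in these settings. The gap to the 10 genes was thus narrow with equal covered length, 0.975 against 0.935. The median ratio of height in shared regions was, in that order, 0.883, 0.858, 0.850, 0.784, 0.890, 0.866 and 0.825. With equal covered length 4 of the 10 genes had less length in AKO, as 32 AKO but only 20 WT peaks were kept in their windows, and the shares of peaks with a partner were 56.25% in AKO and 80.0% in WT. Under the stricter q the share of WT peaks with a partner was 41.8%. Shares over all peaks were not computed in these settings, so these shares have no genome-wide value beside them. Under the stricter q the rule of size put 2 members lower, Pik3r1 and Foxo1, and 11.0% of all protein-coding genes. Under the stricter fold it put 1 lower, Foxo1, and 6.77% of all genes. Irs1 met the rule in the other direction under the stricter q and with equal covered length, since both of its WT peaks were then removed, including the one of 33 fragments. Of all 21631 protein-coding genes, the rule put 16 higher under the stricter q and 465 higher with equal covered length. Irs2, nearly equal with the full lists, had 6.25 kb in AKO and 10.3 kb in WT under the stricter q. It had 8.15 kb in AKO and 11.0 kb in WT under the stricter fold. With equal covered length it had 6.25 kb in AKO and 9.18 kb in WT. The direction at Irs2 turned with joined peaks and gene bodies alone, and that at Grb10 with equal numbers or equal length. Those at Insr, Pik3r1 and Akt2 turned with equal length. The cause was not tested beyond the peaks that each setting removes.

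No paired analysis was possible because each genotype has 1 library. Leaving out a replicate was not possible for the same reason. With 10 fragments at the smallest called summit, depth limits what can be said of sites called in a single library.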
